A study of Rattus norvegicus with 6 samples.

Results

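The genes of the meiotic chromosome axis and of meiotic recombination were followed in rat testis, as a list of 41 genes chosen for their known roles in meiosis, with earlier results of these data known. A gene was taken by its symbol in the deposited expression table. Of the 41 genes, 40 had at least 1 row, Tex12 had 2 rows, and no row carried the symbol Shoc1, so that 41 of the 35291 rows of the table belonged to the group. Of these 41 rows, 40 reached the mean of 0.5 FPKM over all rats that was asked for a test, as did 20338 rows of the whole table, and Mei4 lay below it. FPKM, fragments per kilobase of transcript and per library size, is corrected for transcript length and for sequencing depth, so that levels of different genes can be set side by side.

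RNA-Seq of testicular tissue from 3 diabetic (DM) and 3 non-diabetic (ND) Sprague-Dawley rats, an outbred strain, was compared. The DM rats had been fed a high-fat diet and had then received a single intraperitoneal injection of streptozotocin (STZ), a toxin of the pancreatic beta cell, at 35 mg/kg, 8 weeks before the testes were removed. The ND rats had received citrate buffer, and the methods do not say whether they shared the high-fat diet, so that the diet and the diabetes cannot be told apart here. The rats were adult males, their exact age is not given in the sources used here, and each sample was read as 1 rat because the methods do not speak of pooling.

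Meiosis takes the spermatocyte from a diploid to a haploid chromosome set. In its long prophase the replicated chromosomes are folded along a protein axis built on cohesin rings, the DNA is cut on purpose by SPO11, and the cuts are repaired on the homologous chromosome while the synaptonemal complex zips the homologues together. Some of the repair sites become crossovers, which hold the homologues together until the first division. Loss of many of these genes arrests spermatocytes in prophase and causes male infertility in rodents. In a whole testis their mRNA comes from spermatocytes and, for some of them, from spermatogonia and spermatids, and fewer cells of a type cannot be told apart from less RNA per cell.

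The table holds no counts, so the reads behind each library are unknown. The relative depth, read from ratios that many genes below 1 FPKM share, was between 0.966 and 1.09 in the DM rats and between 0.893 and 1.02 in the ND rats, against a mean of 1. Markers of the tissue were present in both groups: the summed level of 10 spermatid markers lay between 13780 and 15204 FPKM in the DM rats and between 13232 and 15314 FPKM in the ND rats. The sum of 8 pachytene spermatocyte markers lay between 2013 and 2188 FPKM in the DM rats and between 1999 and 2167 FPKM in the ND rats, and that of 10 Sertoli cell markers between 67.2 and 68.5 and between 61.7 and 69.7 FPKM. Of the 8 pachytene markers, 7 were higher and 1 lower in mean in the DM rats (median log2 fold change 0.066). Only Pou5f2 among them had separate groups, at 15.9 FPKM in mean in the DM rats and 12.1 FPKM in the ND rats. The sum of 10 spermatogonia markers lay between 76.5 and 88.8 FPKM in the DM rats and between 73.4 and 76.8 FPKM in the ND rats. Uchl1 alone supplied 47.5 FPKM of the DM mean and 37.3 FPKM of the ND mean. Of the 9 spermatogonia markers tested, 6 were lower and 3 higher in mean in the DM rats (median log2 fold change -0.17). Kit, at 3.52 and 4.34 FPKM in mean in the DM and ND rats, was lower with separate groups. Uchl1 and Sohlh2 were higher with separate groups, Sohlh2 at 6.34 and 5.62 FPKM in mean. Separate groups were found for 13.0% of all genes tested. Of the 9 Sertoli cell markers tested, 6 were higher and 3 lower in mean in the DM rats (median log2 fold change 0.056). Only Wt1 of this list had separate groups, at 13.5 FPKM in mean in the DM rats and 12.2 FPKM in the ND rats. Cldn11 supplied 33.4 FPKM of the DM mean and 34.2 FPKM of the ND mean of the Sertoli cell sum. Amh of the Sertoli cell list and Nanos3 of the spermatogonia list lay below the filter. Of the somatic lists, the 7 Leydig cell markers summed to 39.4 to 65.6 FPKM in the DM rats against 109 to 146 FPKM in the ND rats, and the 8 macrophage markers to 17.3 to 20.1 FPKM against 26.3 to 35.5 FPKM, with all 7 and all 8 of the genes lower in mean. Nr5a1 of the Leydig cell list was nearly equal, at 3.29 FPKM in mean in the DM rats and 3.32 FPKM in the ND rats. The groups overlapped for Nr5a1 and, in the macrophage list, for Cd163, Adgre1 and C1qb. The part of the Leydig cell and macrophage lists in any value below was not tested.

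As a group, the meiotic genes had nearly the same level, relative to library size, in DM and ND testes. Their summed level was 1072, 1091 and 1157 FPKM in the DM rats and 1099, 1102 and 1127 FPKM in the ND rats, a ratio of the means of 0.998. FPKM do not give the amount of RNA per testis or the number of cells. The study reported a lower testicular index (testis weight over body weight) and reduced spermatogenesis in DM rats, which these values do not measure. Of the 40 rows tested, 26 were lower and 14 higher in mean in the DM rats. Of all 20338 genes tested, 11313 were lower and 9025 higher. The median log2 fold change was -0.027 over the 40 rows, against -0.021 over all genes tested. Log2 fold changes are differences of mean log2(FPKM + 0.1), DM minus ND, and understate the change of low genes, and SE stands for their standard error. With limma and Benjamini-Hochberg adjustment over all genes tested, 0 of the 40 rows had an adjusted p-value below 0.05, against 0.0344% of all genes. The criterion of the study asked for a change of 2-fold or more, up or down, together with a p-value under 0.05 before adjustment. The study used it on transcripts with DESeq2, and here its cutoffs were set on limma results for gene-level FPKM. They were met by 0 of 40 rows, against 1.24% of all genes. An unadjusted p-value from limma below 0.05 was reached by 3 rows, or 7.5%, and by 7.46% of all genes. These were Tex12 and Tex15, lower in the DM rats (2 rows, or 5%, against 4.99% of all genes), and Ccna1, higher in the DM rats (1 row, or 2.5%, against 2.47%). DM and ND values were fully separate for 5 rows, or 12.5%, those of Tex12, Prdm9, Tex15, Ccna1 and Tex14, against 13.0% of all genes. The count of 3 rows depended on single rats. It was 1 row, or 2.5%, without DM rat 1, without DM rat 2 or without ND rat 1. In these fits 6.96%, 5.50% and 7.10% of all genes were below 0.05. It was 5 rows, or 12.5%, without DM rat 3, against 7.73% of all genes.

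A p-value above the threshold does not show that levels were equal, so the 95% interval of each difference from limma, not adjusted for the number of genes, was set beside it. It lay within a change of 2-fold in either direction for 38 of the 40 rows, and within 1.5-fold for 32. Over all genes tested, 80.9% of the intervals lay within 2-fold and 58.7% within 1.5-fold. The 2 rows whose interval reached beyond 2-fold were those of Tex12 and Rad21l1, both towards lower values in the DM rats. The median standard error of the log2 fold change was 0.11 over the 40 rows and 0.15 over all genes tested, and the median level was 9.37 FPKM over the 41 rows and 4.60 FPKM over all genes tested.

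**Figure D1:**
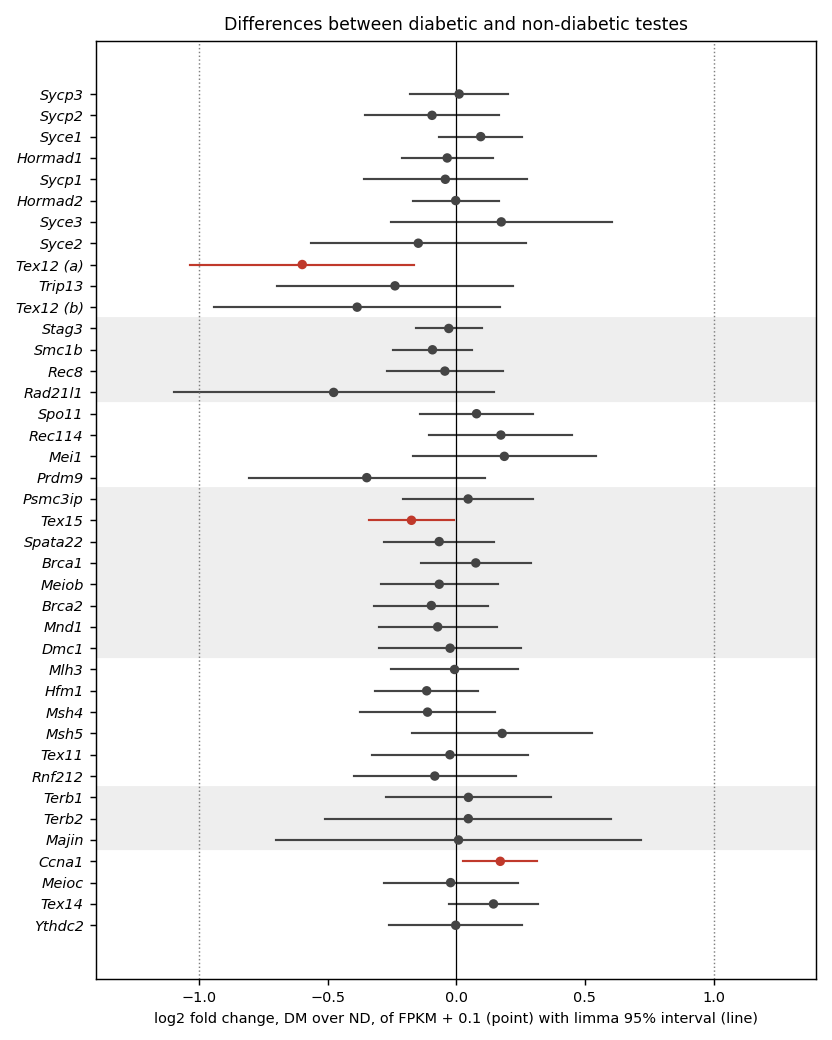
Log2 fold change of each meiotic gene tested, DM over ND, as a point with its 95% interval from limma as a line, grouped by role in shaded bands. The 3 red rows, Tex12 (a), Tex15 and Ccna1, are those with an unadjusted p-value below 0.05, and dotted lines mark a change of 2-fold, beyond which only the intervals of Tex12 (a) and Rad21l1 reach. Tex12 (a) is the row with the higher level of the 2 labelled Tex12.

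Levels within the group spanned 466-fold, from Mei4 at 0.314 FPKM to Stag3 at 147 FPKM as means over the 6 rats. Of the 41 rows, 12 had a mean of at least 40 FPKM, 7 a mean from 10 to 40 FPKM, 21 a mean from 1 to 10 FPKM and 1 a mean below 1 FPKM. Of the 12 highest rows, 8 belonged to the synaptonemal complex, the axis or cohesin, and the lowest were Mei4, Prdm9 and the lesser of the rows for Tex12. In order, the highest rows were Stag3, Sycp3 at 118, Smc1b at 98.6, Psmc3ip at 86.6, Ccna1 at 77.2 and Sycp2 at 71.5 FPKM. Stag3 lay above every other member in each of the 6 rats, and Sycp3 above Smc1b, whereas the values of Smc1b and Psmc3ip, of Psmc3ip and Ccna1, and of Ccna1 and Sycp2 overlapped between rats.

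**Figure D2:**
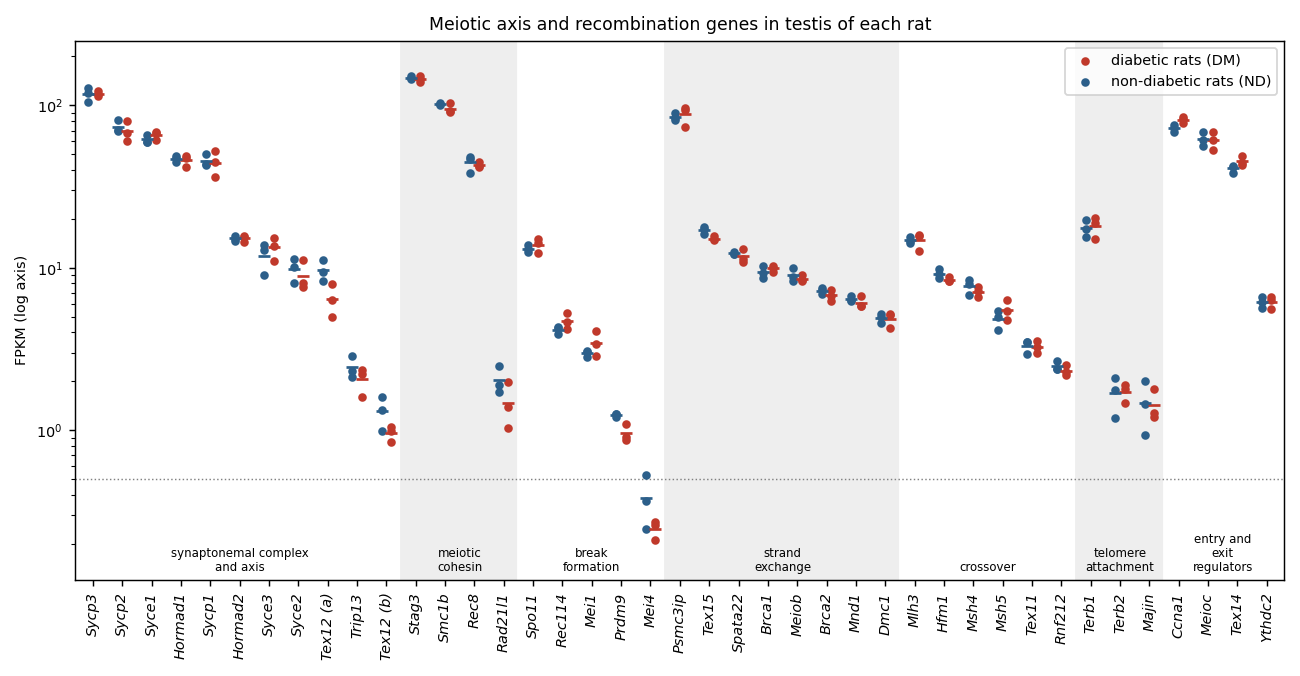
FPKM of each meiotic gene on a log axis, with 1 point per rat and a dash for the mean of each group, grouped by role and ordered by level. The dotted line marks 0.5 FPKM, under which the mean of Mei4 falls, and the points of DM and ND rats overlap for most genes.

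The stretches before the gene starts were searched for letters that the choice of the genes had not used. RefSeq (build GRCr8) gave a promoter window, 250 bases before to 50 after the start, for 32 of the 41 genes, and where it gave more than 1 window the first was counted. The motifs given next were searched on both strands. TTCCCGC is the core bound by E2F factors, among them the repressor E2F6, which keeps germline genes silent in somatic cells. CACGTG is the E-box, bound by MAX with MGA in the same repressive complex and by other factors. CNCCTCAG is the element bound by STRA8 and MEIOSIN, which switch on meiotic genes, and AACNGNC holds the core of MYB factors, among them A-MYB of the pachytene spermatocyte. The motifs do not contain one another. TTCCCGC was found in 13 of the 32 windows, or 40.6%, against 8.14% of the windows of 10090 tested protein-coding genes and 4.47% of all 27457 windows. CACGTG was found in 7 windows, or 21.9%, against 9.46% and 6.65%. CNCCTCAG was found in 9 windows, or 28.1%, against 10.5% and 8.82%, and AACNGNC in 14 windows, or 43.8%, against 34.1% and 33.6%. The median GC content was 58.2% for the windows of the meiotic genes, 60.3% for those of the tested protein-coding genes and 52.3% for all windows. The median number of CpG dinucleotides was 18, 20 and 7 in that order. The part of base composition in the shares was not tested. A match is a description of letters and not a bound site, and the shares were not tested. The motifs belong to factors with known roles in germline or meiotic genes. A higher share in a list of meiotic genes could therefore be foreseen and is no independent result.

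**Figure D3:**
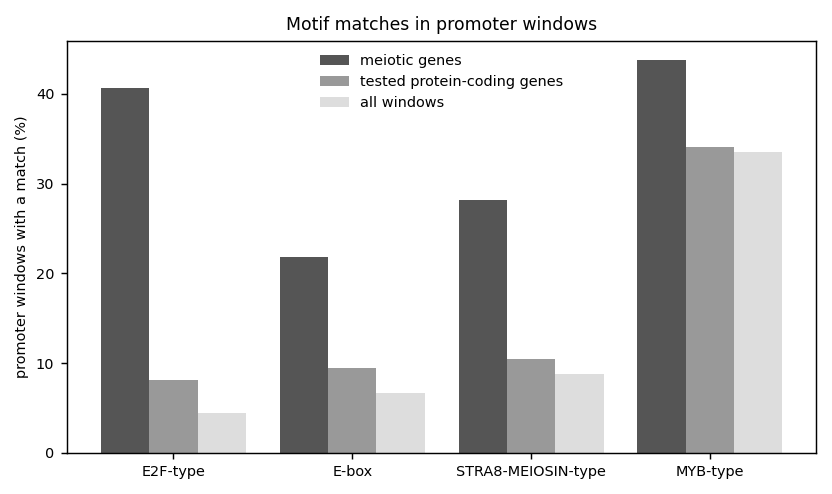
Share of promoter windows with at least 1 match to each of 4 motifs, for 32 meiotic genes, 10090 tested protein-coding genes and all 27457 windows, in percent. The bars of the meiotic genes stand at 40.6%, 21.9%, 28.1% and 43.8%.

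To show what these matches look like, the surroundings of some of them are given, 5′ to 3′ on the strand of the gene, with the match in capitals. GCGGGAA is TTCCCGC read on the other strand. The E2F-type matches of the cohesin genes Stag3 and Smc1b, of the axis gene Hormad1, and of Prdm9, Tex12 and Tex14 began between 129 and 33 bases before the start:
Stag3 (chr12:22398262-22398302, + strand): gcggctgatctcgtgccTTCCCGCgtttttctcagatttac
Smc1b (chr7:118122658-118122698, - strand): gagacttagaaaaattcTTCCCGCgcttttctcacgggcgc
Hormad1 (chr2:185805563-185805603, + strand): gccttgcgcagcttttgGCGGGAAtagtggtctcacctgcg
Prdm9 (chr1:65198771-65198811, - strand): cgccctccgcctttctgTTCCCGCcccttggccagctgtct
Tex12 (chr8:59809621-59809661, - strand): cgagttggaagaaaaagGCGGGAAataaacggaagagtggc
Tex14 (chr10:72728948-72728988, + strand): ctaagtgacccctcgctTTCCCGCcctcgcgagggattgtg

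The window of Sycp3 held 2 E-boxes, at 85 and 64 bases before the start, and that of Terb1 held 1 at 25 bases. Elements of the STRA8 and MEIOSIN type stood 199 bases before the start of Sycp1 and 169 bases before that of Spata22, the latter on the other strand:
Sycp3 (chr7:24761374-24761413, + strand): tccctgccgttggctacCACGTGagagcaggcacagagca
Terb1 (chr19:480118-480157, + strand): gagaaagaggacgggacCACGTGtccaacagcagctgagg
Sycp1 (chr2:193145355-193145396, - strand): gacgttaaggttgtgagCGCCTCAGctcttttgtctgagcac
Spata22 (chr10:58445147-58445188, + strand): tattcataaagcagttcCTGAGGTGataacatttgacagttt

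The synaptonemal complex is a ladder whose rails, the lateral elements, are built from SYCP2 and SYCP3, whose rungs are SYCP1, and whose midline is a central element of SYCE1, SYCE2, SYCE3 and TEX12. SYCP3, the protein that stains chromosome axes in meiotic spreads, had 114, 118 and 122 FPKM of its mRNA in the DM rats and 105, 118 and 128 FPKM in the ND rats. The DM values lay inside the range of the ND values, and the log2 fold change was 0.011 (SE 0.081, limma adjusted p = 0.992). The 95% interval allowed a ratio of DM to ND from 0.883 to 1.15. Sycp2, its partner on the rails, was at 60.6, 67.3 and 79.9 FPKM in the DM rats and 70.5, 69.6 and 80.8 FPKM in the ND rats. Sycp1, the rung, was at 36.3, 44.6 and 52.4 FPKM in the DM rats and 43.6, 42.7 and 49.8 FPKM in the ND rats. For both genes the groups overlapped, and the spread among the DM rats, with an SD of 9.82 FPKM for Sycp2 and 8.05 FPKM for Sycp1, was wider than the difference between the means.

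Among the genes of the central element, Syce1 was the highest at 63.8 FPKM over all rats, followed by Syce3 at 12.6 and Syce2 at 9.37 FPKM. None of the 3 separated the groups. The log2 fold changes were 0.095, 0.17 and -0.15 in that order, and the interval of Syce3 reached just beyond 1.5-fold.

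Tex12, the partner of SYCE2 in the long fibres of the central element, had the lowest log2 fold change of the whole group. Of the 2 rows with this symbol, the one with the higher level (ENSRNOG00000049470) was at 6.30, 4.95 and 7.89 FPKM in the DM rats and 11.2, 8.30 and 9.39 FPKM in the ND rats. Every DM rat lay below every ND rat, although DM rat 3 and ND rat 2 were close. On average these were 6.38 ± 1.47 FPKM and 9.62 ± 1.44 FPKM (SD, n = 3 each), which gave a log2 fold change of -0.60 (SE 0.19, limma adjusted p = 0.539). The exact permutation test, two-sided, gave p = 0.1, the smallest that 3 rats against 3 allow. The 95% interval ran from a ratio of 0.488 to one of 0.893. In all 16 alternatives run for this row the direction was kept and the unadjusted p-value from limma stayed below 0.05, though without ND rat 1 it lay at the threshold, while the adjusted p-value ran from 0.273 to 0.862.

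A further row with the symbol Tex12 (ENSRNOG00000038746) was lower, at 0.843, 0.992 and 1.04 FPKM in the DM rats and 1.32, 0.990 and 1.59 FPKM in the ND rats, and its groups overlapped. Which of the rows stands for the annotated gene, and so for the promoter window above, is not known here. The lower row held between 10.6% and 16.7% of the sum of both rows in each rat. Fragments that fit both loci could have been split between them, so the sum was also tested, a choice made after the values were seen. The sum was at 7.15, 5.94 and 8.94 FPKM in the DM rats and 12.5, 9.29 and 11.0 FPKM in the ND rats, with a log2 fold change of -0.58 (SE 0.17, limma adjusted p = 0.494), and the groups again did not overlap.

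HORMAD1 and HORMAD2 mark axes that have not yet been zipped, and the ATPase TRIP13 strips them off. Hormad1 was at 41.8, 47.4 and 48.7 FPKM in the DM rats and 47.4, 45.1 and 48.7 FPKM in the ND rats. Hormad2 lay between 14.4 and 15.8 FPKM in all 6 rats, with a log2 fold change of -0.0025 and an interval from a ratio of 0.889 to 1.12. The highest rat stood 1.10 times above the lowest. Trip13, a low gene, was at 1.61, 2.21 and 2.35 FPKM in the DM rats and 2.13, 2.30 and 2.86 FPKM in the ND rats, and the groups overlapped (log2 fold change -0.24, limma adjusted p = 0.859).

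Meiotic cohesin replaces subunits of the general ring with germline forms: REC8 and RAD21L for the kleisin RAD21, SMC1B for SMC1A, and STAG3 for its mitotic relatives. Stag3 was at 151, 145 and 138 FPKM in the DM rats and 151, 148 and 145 FPKM in the ND rats. The log2 fold change of Stag3 was -0.030, its SE of 0.054 was the smallest of the 40 rows, and its interval from a ratio of 0.897 to 1.07 was the narrowest. Smc1b was at 92.5, 90.6 and 104 FPKM in the DM rats and 101, 99.9 and 104 FPKM in the ND rats. DM rats 1 and 2 lay below every ND rat and DM rat 3 did not, so that the groups overlapped (log2 fold change -0.093, limma adjusted p = 0.836). Rec8 was at 44.8, 42.3 and 41.7 FPKM in the DM rats and 47.0, 48.3 and 38.3 FPKM in the ND rats, with the ND rats spread around the DM rats. Summed over the 4 cohesin genes, the level was 290, 280 and 286 FPKM in the DM rats and 301, 298 and 290 FPKM in the ND rats, a ratio of the means of 0.962. All 4 genes were lower in mean, and the sums of DM rat 1 and ND rat 3 were almost equal. The log2 fold changes of Rec8 and Stag3 were -0.045 and -0.030. That of Rec8 changed sign without ND rat 2, and that of Stag3 without DM rat 3.

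Rad21l1, the other meiotic kleisin gene and a marker of early prophase, was at 1.03, 1.39 and 1.99 FPKM in the DM rats and 1.90, 1.72 and 2.50 FPKM in the ND rats. DM rats 1 and 2 were low and DM rat 3 lay within the ND values. The log2 fold change was -0.48 (SE 0.26, limma adjusted p = 0.773), and the interval, from a ratio of 0.467 to 1.11, was too wide to tell a loss of 2-fold from no change. Fits that dropped 1 rat each gave -0.71 to -0.26.

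Set beside the general subunits, a comparison chosen after the values were seen, Smc1b was 12.9 to 17.1 times as high per length as Smc1a across the 6 rats (ratios of FPKM + 0.1), and Rec8 was 3.02 to 3.70 times as high as Rad21. Rad21l1 stood at 0.0932 to 0.204 of Rad21. For each of these ratios the DM and ND rats overlapped.

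Meiotic breaks are made by SPO11 with the help of MEI1, MEI4 and REC114, at sites that PRDM9 marks by methylating histone H3. Spo11 was at 12.3, 14.3 and 15.0 FPKM in the DM rats and 13.7, 12.4 and 13.1 FPKM in the ND rats, and the groups overlapped (log2 fold change 0.078, limma adjusted p = 0.919). Mei1 was at 2.87, 3.37 and 4.06 FPKM in the DM rats and 3.09, 3.04 and 2.81 FPKM in the ND rats. Rec114 was at 4.67, 5.24 and 4.22 FPKM in the DM rats and 3.89, 4.33 and 4.25 FPKM in the ND rats. In both genes 2 DM rats were above every ND rat and the third was not, and the log2 fold changes were 0.19 and 0.17. Mei4, the member below the filter, was at 0.272, 0.260 and 0.210 FPKM in the DM rats and 0.530, 0.247 and 0.368 FPKM in the ND rats. Without the filter its log2 fold change was -0.43 (limma adjusted p = 0.873), and ND rat 2 lay among the DM rats.

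Prdm9 was at 0.873, 0.914 and 1.09 FPKM in the DM rats and 1.21, 1.26 and 1.26 FPKM in the ND rats. The ND rats were nearly equal and every DM rat lay below them. On average these were 0.959 ± 0.115 FPKM and 1.24 ± 0.0275 FPKM (SD, n = 3 each), for a log2 fold change of -0.35 (SE 0.20, limma adjusted p = 0.778, exact permutation p = 0.1). Before adjustment, limma put its p-value below 0.05 in 1 of 17 alternatives, that of eBayes without the mean-variance trend. The interval ran from a ratio of 0.571 to 1.08.

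The cut ends are coated by recombinases and search for the homologue. DMC1 is the recombinase of meiosis, and the pair of PSMC3IP (HOP2) and MND1 assists it. Dmc1 was at 4.24, 5.09 and 5.19 FPKM in the DM rats and 4.56, 5.01 and 5.16 FPKM in the ND rats, with a log2 fold change of -0.024 and an interval from a ratio of 0.811 to 1.19. Mnd1 was at 5.83, 6.68 and 5.80 FPKM in the DM rats and 6.31, 6.72 and 6.21 FPKM in the ND rats. Psmc3ip was at 96.8, 74.0 and 93.9 FPKM in the DM rats and 83.6, 89.9 and 81.4 FPKM in the ND rats, with DM rat 2 the lowest and DM rat 1 the highest of all. MEIOB and SPATA22 bind single-stranded DNA as a pair. Meiob lay between 8.23 and 9.91 FPKM and Spata22 between 10.8 and 13.1 FPKM over the 6 rats, and both had a log2 fold change of -0.067.

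BRCA2 loads the recombinases and BRCA1 acts in the repair and in the silencing of the unpaired sex chromosomes. Brca1 was at 9.37, 10.3 and 10.0 FPKM in the DM rats and 8.68, 9.33 and 10.2 FPKM in the ND rats. Brca2 was at 6.24, 6.74 and 7.27 FPKM in the DM rats and 7.32, 6.88 and 7.46 FPKM in the ND rats. The groups overlapped for both genes, with log2 fold changes of 0.075 and -0.097.

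TEX15 is needed in male germ cells for the loading of the recombinases and for the silencing of transposons. Tex15 was at 14.7, 14.9 and 15.6 FPKM in the DM rats and 17.2, 17.8 and 16.1 FPKM in the ND rats. All DM rats lay below all ND rats by a small step. On average these were 15.1 ± 0.448 FPKM and 17.1 ± 0.869 FPKM (SD, n = 3 each), for a log2 fold change of -0.17 (SE 0.071, limma adjusted p = 0.661, exact permutation p = 0.1). The interval, from a ratio of 0.789 to 0.995, was that of a difference of less than 1.5-fold. Its unadjusted p-value was below 0.05 in 10 of 17 alternatives and in 2 of the 6 fits that left out 1 rat, and it was above 0.05 under median-ratio scaling.

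Crossovers are set by the MutSγ pair of MSH4 and MSH5, by the helicase HFM1, by TEX11, SHOC1 and the ligase RNF212, and are resolved with MLH3. Msh4 was at 6.59, 7.21 and 7.58 FPKM in the DM rats and 8.44, 6.78 and 7.96 FPKM in the ND rats. Msh5 was at 5.38, 6.36 and 4.76 FPKM in the DM rats and 4.95, 5.42 and 4.17 FPKM in the ND rats. The groups overlapped for both, and the log2 fold changes, -0.11 and 0.18, had opposite signs. Mlh3 was at 12.6, 15.9 and 15.6 FPKM in the DM rats and 14.1, 14.7 and 15.4 FPKM in the ND rats, with means of 14.7 FPKM in both groups. Hfm1 lay between 8.24 and 9.77 FPKM, Tex11 between 2.96 and 3.53 FPKM and Rnf212 between 2.19 and 2.66 FPKM over the 6 rats. All 6 crossover genes with a row had an interval within 1.5-fold, as had all 8 genes of strand exchange.

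TERB1, TERB2 and MAJIN tie the telomeres to the nuclear envelope, so that chromosomes can be moved while they pair. Terb1 was at 15.1, 18.9 and 20.4 FPKM in the DM rats and 19.7, 15.5 and 17.2 FPKM in the ND rats. Terb2 was at 1.47, 1.90 and 1.78 FPKM in the DM rats and 1.77, 1.19 and 2.11 FPKM in the ND rats. Majin was at 1.80, 1.28 and 1.21 FPKM in the DM rats and 1.44, 2.01 and 0.930 FPKM in the ND rats. The log2 fold changes were between 0.0084 and 0.047. The spread within a group was wide for Majin, whose interval ran from a ratio of 0.615 to 1.65, so that changes of about 1.5-fold were not detectable for it.

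MEIOC and YTHDC2 act as a pair that moves germ cells from the mitotic programme into meiotic prophase. Meioc was at 53.2, 61.6 and 69.0 FPKM in the DM rats and 61.6, 56.4 and 68.1 FPKM in the ND rats. Ythdc2 was at 5.54, 6.32 and 6.60 FPKM in the DM rats and 5.64, 6.19 and 6.65 FPKM in the ND rats, 2 nearly equal sets of values with a log2 fold change of -0.0025.

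Ccna1 encodes cyclin A1, which late spermatocytes need to enter the first meiotic division, and it had the clearest higher value in the DM rats. It was at 84.6, 82.2 and 78.4 FPKM in the DM rats and 72.7, 76.2 and 69.0 FPKM in the ND rats. All DM rats were above all ND rats, with 78.4 FPKM in DM rat 3 next to 76.2 FPKM in ND rat 2. On average these were 81.7 ± 3.11 FPKM and 72.6 ± 3.59 FPKM (SD, n = 3 each), for a log2 fold change of 0.17 (SE 0.061, limma adjusted p = 0.613, exact permutation p = 0.1). The interval ran from a ratio of 1.02 to 1.24. The unadjusted p-value of Ccna1 was below 0.05 in 12 of 17 alternatives and in 2 of the 6 fits that left out 1 rat.

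Tex14, a component of the bridges that join germ cells of a clone, was at 42.8, 44.1 and 48.6 FPKM in the DM rats and 38.3, 42.0 and 42.3 FPKM in the ND rats. The groups did not overlap, although DM rat 1 and ND rat 3 were close, and the log2 fold change was 0.14 (SE 0.074, limma adjusted p = 0.744, exact permutation p = 0.1). Its unadjusted p-value was below 0.05 in 2 of 17 alternatives, one of them median-ratio scaling.

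Genes of related roles were set in pairs, not all of which encode proteins that work together, as with the alternative kleisins REC8 and RAD21L. The mRNAs of a pair differed several-fold in level for some pairs and little for others. Their ratios within a rat, taken on FPKM + 0.1, overlapped between the groups for most pairs. Psmc3ip was 10.9 to 16.3 times as high as Mnd1 over the 6 rats, Terb1 7.85 to 12.0 times as high as Terb2, and Meioc 8.99 to 10.7 times as high as Ythdc2. Meiob stood at 0.642 to 0.832 of Spata22, Sycp1 at 0.319 to 0.430 of Sycp3, and Hormad1 at 2.70 to 3.36 times Hormad2. For these pairs, and for Rec8 with Rad21l1, Msh4 with Msh5 and Majin with Terb2, the DM and ND rats overlapped.

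The ratios of the groups stood apart for 3 of the 12 pairs, while 13.0% of all single genes had separate groups and no such share was computed for pairs. The log2 ratio of Syce2 to the higher row of Tex12 was 0.35, 0.60 and 0.49 in the DM rats and 0.016, 0.28 and -0.21 in the ND rats. That of Brca1 to Brca2 was 0.58, 0.60 and 0.46 in the DM rats and 0.24, 0.43 and 0.45 in the ND rats. That of Mei4 to Rec114 was -3.68, -3.89 and -3.80 in the DM rats and -2.66, -3.67 and -3.22 in the ND rats. Mei4 lay below the filter of 0.5 FPKM, where the added 0.1 weighs on the ratio. For Brca1 to Brca2 and Mei4 to Rec114 the nearest DM and ND rats were almost equal, at 0.46 and 0.45 and at -3.68 and -3.67. No test was made on the ratios.

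**Figure D4:**
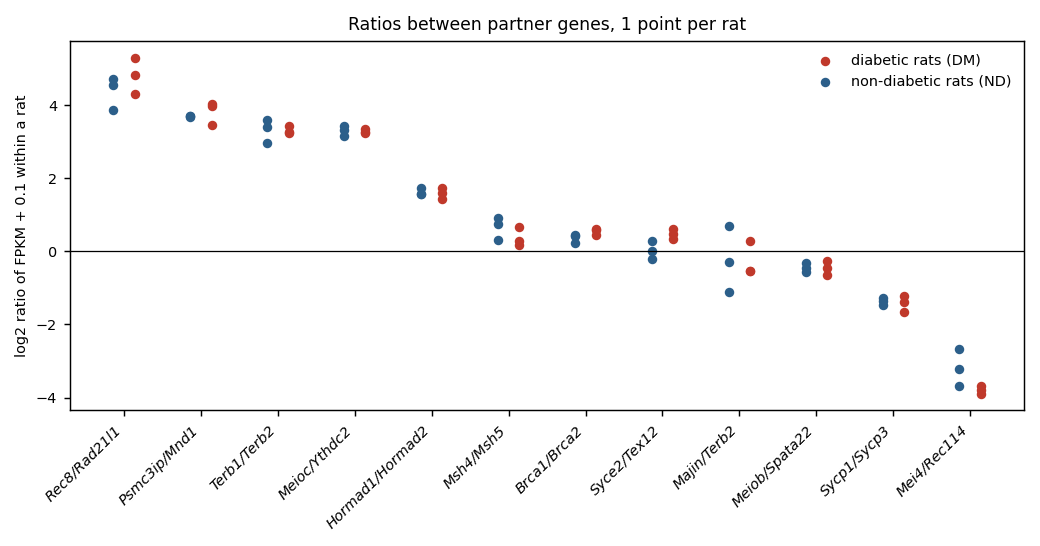
Log2 ratio of FPKM + 0.1 between genes set in pairs by related role, within each rat, with 1 point per rat and DM rats in red. Not all pairs encode proteins that work together. Points of DM and ND rats overlap for 9 of the 12 pairs and stand apart for Syce2/Tex12 and, by a minute step, for Brca1/Brca2 and Mei4/Rec114. Of all single genes tested, 13.0% had separate groups, and no such share was computed for pairs.

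Single rats differed from one another across many members. DM rat 1 had the lowest value of all 6 rats for 18 of the 40 rows tested, or 45%, while it was the lowest rat for 20.2% of all genes tested. Against the mean of the 6 rats, the median deviation of the 40 rows in DM rat 1 was -0.12 on the log2 scale, with 31 rows below and 9 above, and that of all genes was -0.015. The rows lowest in it included Sycp1, Sycp2, Hormad1, Trip13, Rad21l1, Spo11, Prdm9, Dmc1, Brca2, Terb1 and Meioc. At the same time DM rat 1 had the highest value of all rats for Stag3, Psmc3ip, Syce3 and Ccna1. DM rat 3, of the same group, had the lowest value for only 3 rows, Hormad2, Stag3 and Mnd1, and the highest for 9, with a median deviation of 0.063. The ND rats had median deviations of 0.034, 0.0023 and 0.048. The range among the DM rats was therefore wider than the difference between the groups. The relative depth was 1.01 in DM rat 1 and 1.09 in DM rat 3. Without DM rat 1 the median log2 fold change of the 40 rows was -0.020, and without DM rat 3 it was -0.053.

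**Figure D5:**
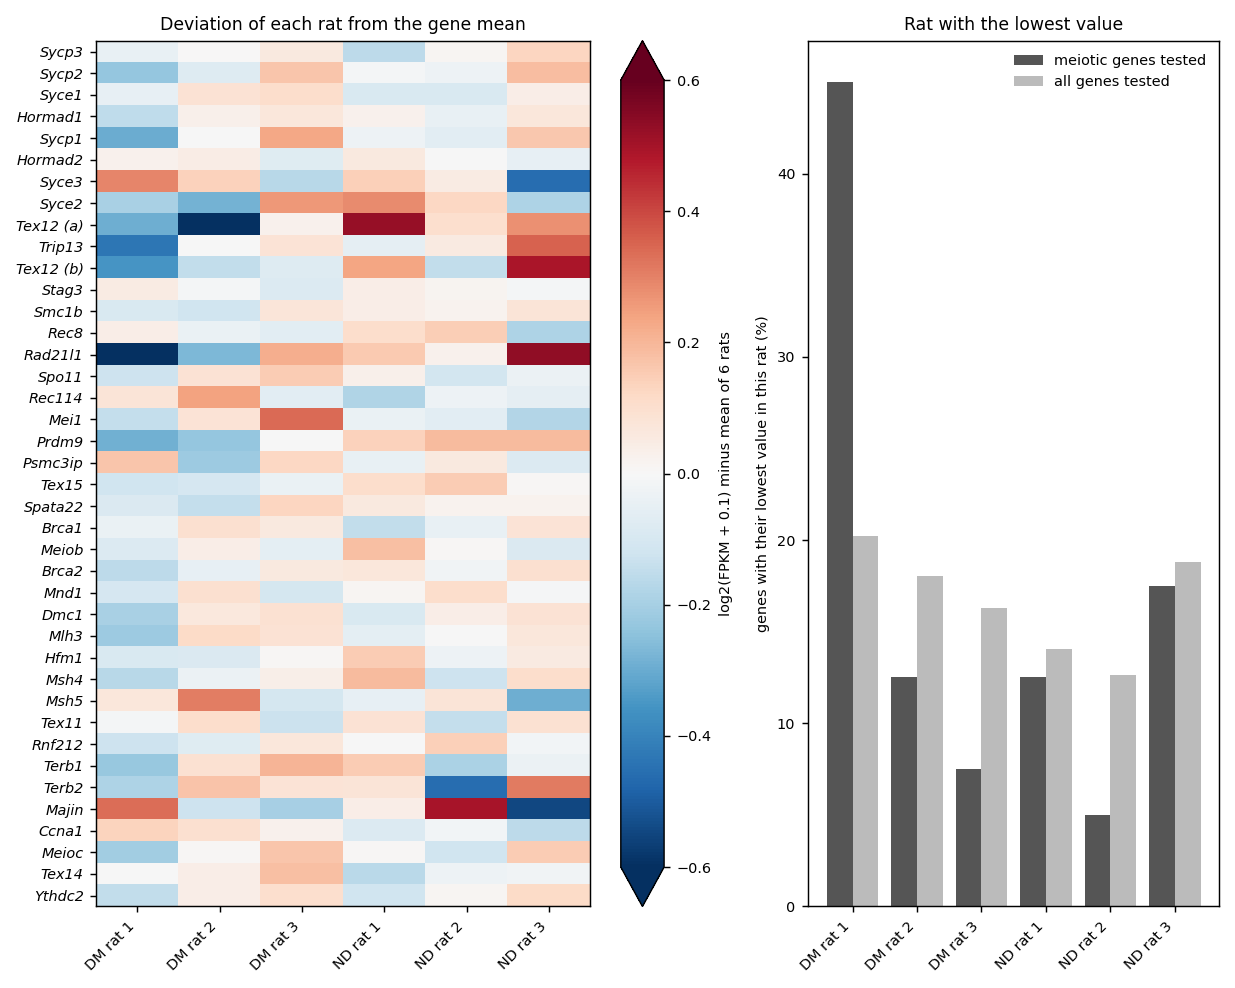
Left, deviation of log2(FPKM + 0.1) in each rat from the mean of the 6 rats for every meiotic gene tested, with red above and blue below the mean and colours saturating at 0.6. Right, the percentage of genes that have their lowest value in each rat, where DM rat 1 stands at 45% of the meiotic genes against 20.2% of all genes tested.

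Other genes of meiosis, listed by role with 70 names of which 57 had a row, were tested in the same fit. Of these 57 genes, 24 were lower and 33 higher in mean in the DM rats, the median log2 fold change was 0.027, and 0 had an adjusted p-value from limma below 0.05. An unadjusted p-value below 0.05 was reached by 1 gene, or 1.75%, against 7.46% of all genes, and the interval lay within 2-fold for 55 of them. The groups did not overlap for Hsf2bp, Nbn, Pds5b, Cdk2 and Cdc25c (5 genes, or 8.77%, against 13.0% of all genes).

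That 1 gene was Hsf2bp, whose product binds BRCA2 and takes part in the loading of the recombinases. Hsf2bp was at 4.01, 6.37 and 5.81 FPKM in the DM rats and 3.57, 3.37 and 3.25 FPKM in the ND rats. All DM rats were above all ND rats, DM rat 1 by the least. The log2 fold change was 0.63 (SE 0.18, limma adjusted p = 0.492, exact permutation p = 0.1), with an interval from a ratio of 1.15 to 2.07. Dropping 1 rat at a time moved it between 0.50 and 0.82. Brca2, its binding partner, and Dmc1, the meiotic recombinase, had log2 fold changes of -0.097 and -0.024.

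The highest gene of each of these lists overlapped between the groups. Hspa2, the chaperone of the spermatocyte, was at 518, 510 and 456 FPKM in the DM rats and 458, 473 and 471 FPKM in the ND rats. Stra8, the switch into meiosis, was at 4.65, 3.22 and 7.53 FPKM in the DM rats and 4.95, 6.56 and 4.99 FPKM in the ND rats, and its DM rats enclosed the ND rats. Mael, a gene of the germ cell nuage, had a mean of 497 FPKM over all rats and a log2 fold change of -0.015. Those of Atr, the kinase that signals from unpaired axes, Zswim7, of a complex that stabilises recombinase filaments, Cntd1, a crossover regulator, and Sun1, the envelope partner of the telomeres, were -0.0073, 0.050, -0.0066 and 0.047.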

How the data were processed

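Testis RNA of 3 DM and 3 ND rats was grouped by the sample labels. The authors checked reads with FastQC, compared them with rRNA by BWA, mapped the rest by STAR and built transcripts by StringTie. Gene-level FPKM computed by the authors were deposited. The build and the tool versions are not given in the sources used here, nor whether counting used strand. The authors screened transcripts with DESeq2, which needs counts.

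The FPKM were transformed to log2(FPKM + 0.1), and rows with a mean of at least 0.5 FPKM were fitted with limma 3.58.1 (eBayes with trend, two-sided, in R 4.3.3), using Benjamini-Hochberg adjustment over all 20338 rows. Exact permutation tests used scipy 1.17.1. The fit was tested on simulated data. Both groups number their rats 1 to 3. These are separate animals, so the fit has no replicate block. Same-numbered rats' deviations correlated at 0.106, 0.0153 and 0.0979, and those of differently numbered rats at -0.126 to 0.0318. All members were named, and of the other meiosis genes those at p below 0.05 without adjustment plus the highest of each list; Stra8 and the general cohesin subunits were added after their values were seen. Members, lists and motifs were chosen with earlier results of these data known. Precision rests on 3 rats a group.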

Additional observations from a re-analysis of the deposited data

How the results depend on the processing

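The settings tried were pseudocounts of 1 and 0.01, all rows unfiltered, a stricter filter at 1 FPKM, TPM, median-ratio scaling, eBayes without trend or robust, the replicate block, protein-coding genes only and leaving out each rat, and, chosen after seeing the data, rows of the same symbol summed. In none of them did a meiotic gene reach an adjusted p-value below 0.05, and 23 of the 40 rows kept their direction in all. Those that changed sign had absolute log2 fold changes of at most 0.17. For none of these moves was the cause tested.

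The count of rows with an unadjusted p-value below 0.05 was 3, and ran from 1 to 5 with each rat left out. It was also 3 with the replicate block and under median-ratio scaling, but there Tex15 was lost and Tex14 gained. With eBayes without trend it was 2, Tex12 and Prdm9. For the other meiosis genes it was 1, ran from 1 to 5 with each rat left out, and was 2 under median-ratio scaling and with the replicate block. Of all genes tested, 5.50% to 7.73% were below 0.05 with each rat left out. The share of all genes was 7.57% under median-ratio scaling, 8.12% with the replicate block and 7.91% with eBayes without trend. Under median-ratio scaling the median of all genes tested moved from -0.021 to 0.0079 (log2 fold change) and that of the members to 0.0018. With this common shift the values of members near 0 were 0.027 for Hormad2, 0.0045 for Dmc1, 0.022 for Mlh3, 0.0036 for Tex11, 0.0070 for Meioc and 0.026 for Ythdc2, each now positive by that shift. That of Majin was -0.0049 with a pseudocount of 1. With each rat left out, the log2 fold change ran from -0.17 to 0.094 for Sycp1, from -0.066 to 0.078 for Sycp3, from -0.0091 to 0.30 for Syce3, from -0.078 to 0.031 for Hormad1, from -0.029 to 0.033 for Hormad2, from -0.15 to 0.018 for Rec8, from -0.061 to 0.0037 for Stag3, from -0.076 to 0.066 for Dmc1, from -0.026 to 0.17 for Psmc3ip, from -0.13 to 0.0066 for Meiob, from -0.067 to 0.099 for Mlh3, from -0.10 to 0.034 for Tex11, from -0.26 to 0.26 for Majin, from -0.044 to 0.17 for Terb1, from -0.17 to 0.21 for Terb2, from -0.11 to 0.075 for Meioc and from -0.063 to 0.070 for Ythdc2.

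The replicate block changed no call at an adjusted p-value below 0.05. The table gives no counts, so the depth of single genes is unknown.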
